A study of Gallus gallus with 2 samples.

Results

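The FOXO1 peaks described here are the 539 listed on chicken chromosomes 6, 7, 8, 9 and 10, chosen by chromosome name alone, of 3317 listed on 29 chromosomes. They came from 1 FOXO1 ChIP library and 1 input DNA library made from primary chicken myoblasts, the precursor cells of muscle fibres. The cells were taken from thigh muscle of 11-day embryos, purified by repeated plating and grown with 20% fetal bovine serum. Differentiation was then induced with 2% horse serum, and the ChIP library was made with a FOXO1 antibody and the input library without one. Both libraries share cell source, stage and medium. The labels name no strain or sex and say nothing of how many embryos were pooled, and the peak list holds no gene with which the cell type could be checked. There was no replicate, so each value compares 1 library with the other, and no interval below covers variation between libraries. Intervals of folds and densities cover counting error only, apart from 1 that is named as widened. Those of medians and shares treat the peaks of 1 library as independent draws. Duplicates made by PCR would make the intervals too narrow, because copies of a fragment are counted as if they were separate.

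FOXO1 is a forkhead transcription factor that leaves the nucleus when insulin or growth factor signalling is active and binds DNA when that signalling falls. In mammalian muscle it is known for switching on genes of protein breakdown during wasting, and it also takes part in myoblast differentiation. The bird genome is divided among a few long chromosomes, a group of intermediate ones and many very short ones, and gene density is known to rise as chromosomes shorten. Chromosomes 6 to 10 are the intermediate group. A peak in this list is a stretch of 203 bp in which sequenced fragments (tags) of the ChIP library piled up over input. The genome build is not given in the sources used here, so positions are printed as listed, and genes at the peaks were not analysed here.

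Peaks were more closely spaced on chromosomes 8 to 10 than on chromosomes 6 and 7. Per Mb of covered length, taken as the highest peak end on a chromosome, chromosome 6 held 3.21 peaks (111 peaks, Poisson 95% interval 2.64 to 3.86) and chromosome 7 held 3.13 (113 peaks, 2.58 to 3.77). Chromosome 8 held 4.22 (121 peaks, 3.50 to 5.04), chromosome 9 held 4.15 (97 peaks, 3.36 to 5.06) and chromosome 10 held 4.90 (97 peaks, 3.97 to 5.98). The intervals of chromosomes 6 and 7 overlapped those of 8 and 9, and neither reached that of chromosome 10.

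Chromosomes 8 to 10 together carried 315 peaks over 71.9 Mb, or 4.38 per Mb. Chromosomes 6 and 7 carried 224 over nearly the same length, 70.7 Mb, or 3.17 per Mb. The density ratio was 1.38 (exact conditional 95% interval 1.16 to 1.65). Peaks were not spread evenly within a chromosome, and an interval widened by the spread over 1 Mb windows ran from 1.08 to 1.77. This split was drawn with the densities known, so the ratio is a description and carries no test. Removing any 1 of the 5 chromosomes left it between 1.32 and 1.42.

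Chromosomes 5 and 11, the next by number, were set beside the group. Chromosome 5 held 3.50 peaks per Mb (3.04 to 4.01), and chromosomes 6 and 7 together had 0.905 times that density (0.746 to 1.10). Chromosome 11 held 4.12 (3.26 to 5.14), and chromosomes 8 to 10 had 1.06 times that density (0.828 to 1.38). Both ratios have intervals that hold 1. Chromosome 12, closer in covered length to chromosome 10 (19.8 Mb each), held 4.81 (3.89 to 5.88). Against wider groups, chromosomes 6 to 10 were 1.51 times as dense as chromosomes 1 to 5 (1.36 to 1.67) and 0.613 times as dense as chromosomes 11 to 20 (0.548 to 0.684).

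**Figure D1:**
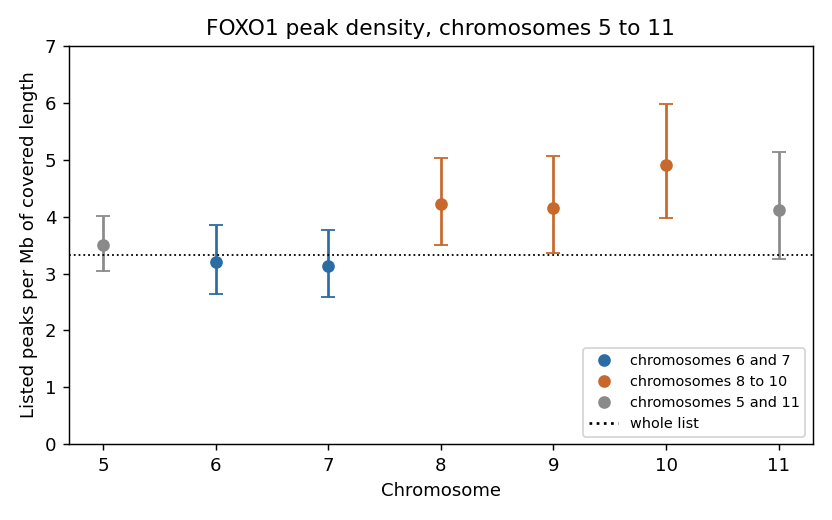
Listed peaks per Mb of covered length (vertical axis) on chromosomes 5 to 11 (horizontal axis), with Poisson 95% intervals as bars and the density of the whole list, 3.33 per Mb, as a dotted line. Chromosomes 6 and 7 sit at 3.21 and 3.13, just under that line, and chromosomes 8, 9 and 10 at 4.22, 4.15 and 4.90, above it.

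Chromosome 6 was the most uneven of the 5. Its peaks thinned out over the first part and crowded into a stretch past the middle. Of its 111 peaks, 9 (8.11%, exact 95% interval 3.77 to 14.8) lay in the first 20% of the covered length and 35 (31.5%, 23.0 to 41.0) in the stretch from 60% to 80%. The 5 Mb from 19000001 to 24000000 held 35 peaks, whereas the 5 Mb from 1000001 to 6000000 held 6. The variance of peaks per 1 Mb window was 2.99 times its expectation under an even spread, against 1.98 on chromosome 7, 1.54 on chromosome 8, 1.60 on chromosome 9 and 1.81 on chromosome 10.

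The densest window on chromosome 6, from 22000001 to 23000000, held 12 peaks, 3.74 times the chromosome's mean. The windows on either side, from 21000001 and from 23000001, held 8 each. The peaks of the densest window had a median of 7.5 ChIP tags (range 6 to 16), near the chromosome's median of 8. They had 5 to 21 input tags. Input tags are given unscaled, and each counts as 0.053 tags at the ChIP depth when a fold is taken. The tallest of them, at 22840219 to 22840421, had 16 ChIP tags against 21 input tags, a 14.38-fold enrichment (exact 95% interval 7.02 to 28.9). With its neighbours at 22824905 to 22825107 (7 tags) and 22835015 to 22835217 (9 tags) it formed a group of 3 in which no gap to the next peak exceeded 10 kb.

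All 3 groups of that size among the 539 peaks lay on chromosome 6. No count of such groups over the whole list is given here, so whether this is unusual cannot be said. The first group lay at 11072605 to 11078094, with 24 ChIP tags and 30 input tags in its 3 peaks and a pooled fold of 15.1 (8.45 to 26.7). The other, at 31661370 to 31668798, had 25 ChIP tags, 20 input tags and a pooled fold of 23.6 (12.6 to 44.8). It sits in the other dense window of this chromosome, from 31000001 to 32000000, which held 11 peaks, 3.43 times the mean. The pooled fold of the group at 22824905 to 22840421 was 12.1 (7.50 to 19.2), so the intervals of the 3 groups overlapped.

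Chromosome 7 went the other way along its length. The first 20% of its length held 37 of 113 peaks (32.7%, 24.2 to 42.2), and each later 20% held 17 to 23. The window from 6000001 to 7000000 held 12 peaks, 3.83 times the mean of the chromosome, with 6 to 10 ChIP tags and 4 to 24 input tags. Of those peaks the highest fold was at 6002089 to 6002291, where 9 ChIP tags stood against 4 input tags (42.47-fold, 11.9 to 189). The lowest, 7.77-fold (2.72 to 19.7), was shared by the peaks at 6731536 to 6731738 and 6848310 to 6848512, each with 7 ChIP and 17 input tags.

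A window was called dense at 3 times its own chromosome's mean or more. Chromosomes 6 and 7 had 3 such windows of 72, and chromosomes 8 to 10 had 0 of 73, which allows a share of up to 4.93% (exact 95% limit). Over the whole list 2.67% of 1012 windows were dense, so the 3 of 145 on chromosomes 6 to 10 (2.07%, 0.429 to 5.93) lay near the background. The limit rises with a chromosome's own density, so the dense counts do not compare crowding between the sets. At 8 or more peaks, chromosomes 6 and 7 had 6 windows of 72 and chromosomes 8 to 10 had 8 of 73. The whole list had 99 such windows of 1012.

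On chromosome 8 the fullest windows held 9 peaks and were spread over 3 places, from 5000001, from 19000001 and from 27000001. The 9 peaks from 19000001 to 20000000 had 6 to 13 ChIP tags and a median fold of 17.3. Chromosome 9 had its fullest window from 14000001 to 15000000, with 11 peaks of 7 to 15 ChIP tags. The tallest peak of chromosome 9 lay inside it, at 14757946 to 14758148, with 15 ChIP tags and 18 input tags (15.73-fold, 7.38 to 33.1). Chromosome 10 was fullest at its far end. The windows from 18000001 and from 19000001 held 11 and 9 peaks, and the last 20% of its length held 32 of 97 (33.0%, 23.8 to 43.3). On chromosomes 8 to 10 together, peaks were fewer from 20% to 60% of the length than at the ends. The stretch from 20% to 40% held 44 peaks and that from 40% to 60% held 48. The next 20% held 64 (20.3%), near an even share, and the first and last 20% held 75 and 84. This dip was not alike on each chromosome. On chromosome 9 the stretch from 40% to 60% held 20 of 97 peaks (20.6%). Chromosomes 6 and 7 together were also low from 20% to 40%, with 33 peaks (14.7%).

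**Figure D2:**
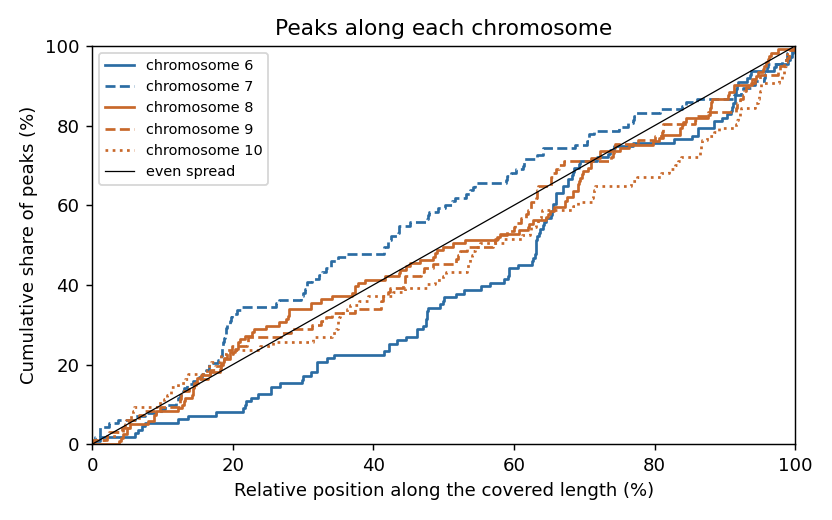
Cumulative share of listed peaks (vertical axis, %) against relative position along the covered length (horizontal axis, %), 1 line a chromosome, with an even spread as the thin diagonal. At each 20% step chromosome 6 is below the diagonal, with 8.11% of its peaks in the first 20%, and chromosome 7 above it, with 32.7%.

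**Figure D3:**
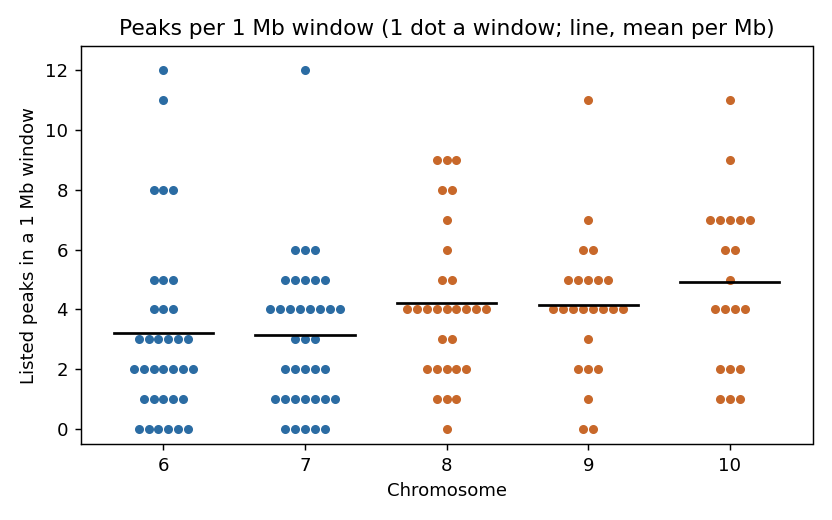
Listed peaks in each 1 Mb window (vertical axis) by chromosome (horizontal axis), 1 dot a window, with a line at the mean per Mb. The windows with 12 peaks are on chromosomes 6 and 7, chromosome 6 has 6 windows with 0 peaks, and chromosome 10 has none.

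Among these 5 chromosomes, most empty 1 Mb windows lay on chromosomes 6 and 7, where peaks were sparser. Of 1 Mb windows, 6 of 35 on chromosome 6 and 5 of 37 on chromosome 7 held 0 peaks. Chromosome 8 had 1 of 29, chromosome 9 had 2 of 24 and chromosome 10 had 0 of 20 (exact 95% limit 16.8%). That is 15.3% (7.88 to 25.7) on chromosomes 6 and 7 and 4.11% (0.856 to 11.5) on 8 to 10, with 14.3% over the whole list. The 14 empty windows of 145 on chromosomes 6 to 10 came to 9.66% (5.38 to 15.7), an interval that holds the background. The intervals of chromosomes 6 and 7 and of 8 to 10 overlapped. On chromosomes 1 to 5 the share was 14.9%, on 11 to 20 it was 4.41%, on 21 to 28 it was 0% and on Z 43.75%. The share over the whole list thus mixes unlike chromosomes and is no usual level. Whether empty windows or long gaps differed beyond what peak density gives was not tested.

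The longest gap between neighbouring peaks was 2.50 Mb, on chromosome 6 from the peak ending at 11891214 to the one starting at 14390930. The peaks on its edges had 7 and 10 ChIP tags, against 9 and 10 input tags. The next 3 on that chromosome, starting at 26662692, 369560 and 2603646, spanned 1.99, 1.76 and 1.61 Mb. Chromosome 7 had gaps of 1.96 Mb from 13002760 and 1.92 Mb from 30994550. On chromosomes 8, 9 and 10 the longest gaps were 1.31 Mb from 15205936, 1.59 Mb from 15689895 and 1.12 Mb from 5097979. Chromosome 8 also had no peak before 1097297, whereas the other 4 began between 11327 and 88891.

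Gaps over 1 Mb numbered 17 on chromosomes 6 and 7 and took up 37.4% of their covered length, and 6 on chromosomes 8 to 10, where they took up 10.04%. No count of such gaps over the whole list is given here, so whether either share is unusual for the list cannot be said. Typical spacing differed less. The median gap was 158 kb on chromosomes 6 and 7 (quartiles 49.0 and 407) and 112 kb on 8 to 10 (45.3 and 297). The median was 170 kb on chromosome 7, the longest of the 5, and 97.5 kb on chromosome 10, the shortest. Whether these stretches could be mapped as well as others was not tested.

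**Figure D4:**
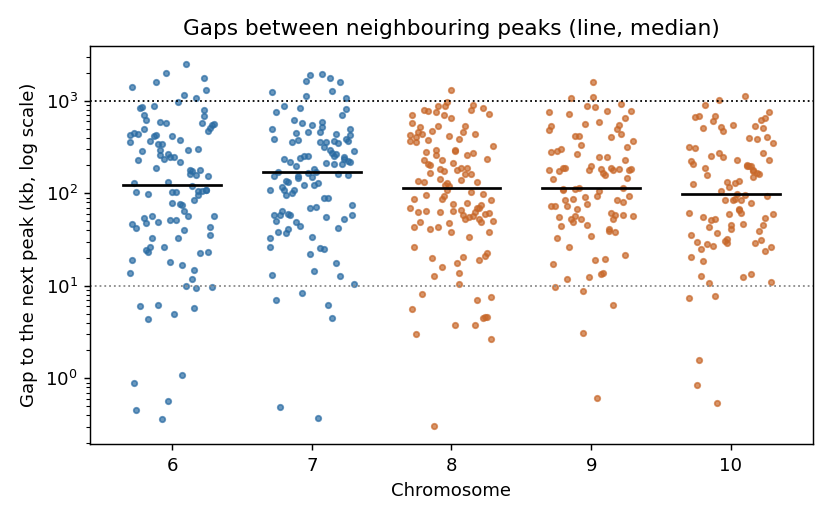
Gap from each listed peak to the next (vertical axis, kb, log scale) by chromosome (horizontal axis), with the median as a line and dotted lines at 1 Mb and 10 kb. Of the gaps above the 1 Mb line, 8 are on chromosome 6 and 9 on chromosome 7, against 1, 3 and 2 on chromosomes 8, 9 and 10.

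Close neighbours were present on every chromosome. Adjacent peaks with a gap of at most 10 kb made 41 pairs and held 79 of the 539 peaks (14.7%, 11.8 to 17.9), against 14.3% over the whole list. Chromosomes 6 and 8 had 13 and 12 such pairs, and chromosomes 7, 9 and 10 had 6, 5 and 5. The shares were 15.6% (11.1 to 21.1) on chromosomes 6 and 7 and 13.97% (10.3 to 18.3) on 8 to 10. Peaks in pairs had a median of 8 ChIP tags and 11 input tags, and the others 7 and 11.

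Median peak height was alike across the 5 chromosomes. Total ChIP tags per peak had a median of 8 on chromosome 6 (range 6 to 25), 7 on chromosome 7 (6 to 14), 8 on chromosome 8 (6 to 21), 8 on chromosome 9 (6 to 15) and 7 on chromosome 10 (6 to 16). The upper quartile was 8 or 9 on each. Peaks with 7 tags or fewer made up 52.2% of those on chromosomes 6 and 7 (45.5 to 58.9) and 49.2% of those on 8 to 10 (43.6 to 54.9). Peaks with 10 or more made up 11.6% (7.72 to 16.5) and 13.3% (9.78 to 17.6). The mean was 8.01 ± 2.14 tags (SD over 224 peaks) and 8.07 ± 1.92 (SD over 315 peaks). By chromosome, peaks with 10 or more tags made up 15.3%, 7.96%, 19.8%, 8.25% and 10.3% on 6, 7, 8, 9 and 10. Over the whole list they made up 14.8%. The lowest share, on chromosome 7 (3.71 to 14.6), and the highest, on chromosome 8 (13.1 to 28.1), had overlapping intervals. The caller lists nothing below a score of 7. That floor is on the score and not on total tags, which went down to 6 on each chromosome. The median score was 8 on chromosomes 6 and 7 and 8 on chromosomes 8 to 10, just above the floor.

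Input tags scaled by the authors to the ChIP depth had a median of 0.6 on chromosomes 6, 7, 8 and 10 and 0.5 on chromosome 9. The highest scaled values were 3.6, 1.5, 5.1, 1.7 and 1.5 on chromosomes 6, 7, 8, 9 and 10. In whole input tags, recovered from the listed folds, the medians were 11, 11, 12, 10 and 11. The medians of the pair were 11 (exact 95% interval of a median 10 to 11) on chromosomes 6 and 7 and 11 (11 to 12) on 8 to 10. The input away from peaks is not in the list.

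Among these 5 chromosomes, peaks with 40 or more input tags were listed only on chromosomes 6 and 8. Each had 4 such peaks, and chromosomes 7, 9 and 10 had 0, with maxima of 29, 33 and 28. The 8 made up 1.48% of the 539 peaks (0.643 to 2.90), near the 1.96% of the whole list. The contrast depends on the limit, as chromosomes 7, 9 and 10 had 8, 6 and 6 peaks with 20 or more input tags. Chromosomes 6 and 8 had 9 and 15. The tallest peak of all 539 lay on chromosome 6 from 8789823 to 8790025. It held 25 ChIP tags, with 68 in the input, and was enriched 6.94-fold (4.20 to 11.1). Its neighbour at 8788723 to 8788925 had 15 and 64, 4.42-fold (2.34 to 7.85). A close pair on chromosome 8, starting at 8923299 and 8923806, had 21 ChIP tags in each peak, against 78 and 96 input tags. Their folds, 5.08 (2.98 to 8.31) and 4.13 (2.44 to 6.67), were among the 5 lowest of the 539. The first peak of chromosome 6, starting at 13223, had 20 ChIP tags against 49 input tags, 7.70-fold (4.34 to 13.2). All 4 peaks with 20 or more ChIP tags on these chromosomes lay where input was high too.

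**Figure D5:**
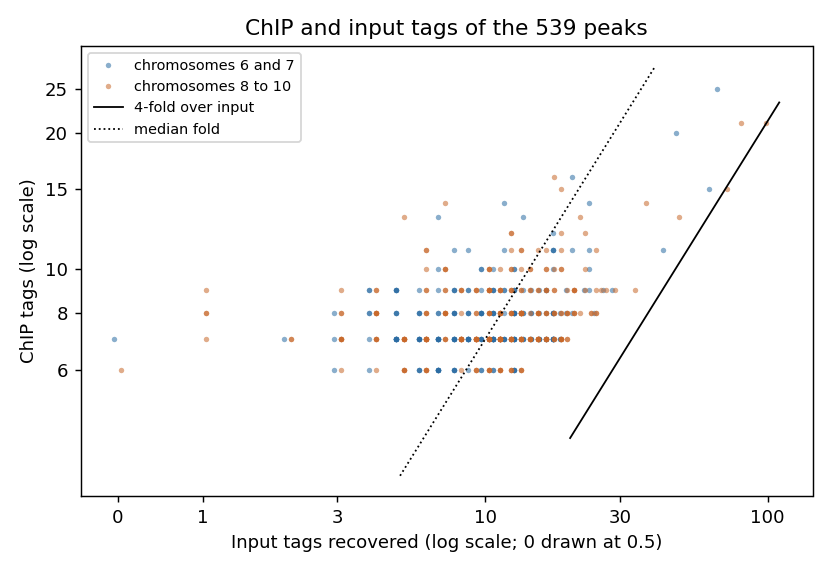
ChIP tags (vertical axis, log scale) against recovered input tags (horizontal axis, log scale, 0 drawn at 0.5) for the 539 peaks, with chromosomes 6 and 7 in blue and 8 to 10 in orange, shifted slightly apart along the horizontal axis only. The solid line is 4-fold over input and the dotted line the median fold of 13.21. The peaks with most ChIP tags, 20 to 25, lie above the solid line at 49 to 96 input tags, past the right end of the dotted line.

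Fold over input had a median of 14.16 on chromosomes 6 and 7 (exact 95% interval of a median 12.13 to 14.68) and 13.07 on 8 to 10 (12.01 to 13.73). By chromosome it was 14.52, 13.21, 12.01, 13.21 and 13.48 on chromosomes 6, 7, 8, 9 and 10. Pooled over all tags the folds were 12.5 (11.8 to 13.3) and 12.4 (11.8 to 13.0), so the order of the pair was within counting error. Chromosome 8 had the lowest pooled fold, 11.3 (10.5 to 12.2), and chromosome 9 the highest, 13.3 (12.1 to 14.6). A pooled fold weighs peaks by their input. Chromosome 8 had 4 peaks with 40 or more input tags, at folds of 4.04 to 5.22, and chromosome 6 also had 4 such peaks. The pooled fold without them was not taken.

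Each peak was tested for a ChIP to input ratio above 4, the minimum the caller required, with a one-sided exact binomial test and Benjamini-Hochberg adjustment over all 3317 peaks. Over the whole list 65.8% of peaks passed. On chromosomes 6 to 10, 366 of 539 did (67.9%, 63.8 to 71.8), near that background. The count was 158 of 224 on chromosomes 6 and 7 (70.5%, 64.1 to 76.4) and 208 of 315 on 8 to 10 (66.0%, 60.5 to 71.2). Chromosome 6 had 83 of 111 (74.8%, 65.6 to 82.5), and the other 4 had 65.3% to 67.0%. The authors kept only peaks past their own fold and p limits, so the test sorts listed peaks and is no independent check of them. The lower 95% limit of the fold lay above 4 at 332 peaks (61.6%), against 60.3% of the whole list. With Bonferroni adjustment 7 of the 539 passed, and 2.59% of the whole list.

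The 10 peaks with the smallest p-value over input had 7 to 16 ChIP tags and 0 to 17 input tags. The smallest p-value of the caller on these chromosomes, 3.9e-18, belonged to the chromosome 10 peak at 9953897 to 9954099, with 13 ChIP tags and 5 input tags, 49.07-fold (16.4 to 176). Against the ChIP level of the 10 kb around it, it stood out 48.26-fold. The next was on chromosome 9 at 15267063 to 15267265, with 14 ChIP and 7 input tags, 37.75-fold (14.3 to 111). On chromosome 7 the peak at 34525675 to 34525877 had 13 and 7, 35.05-fold (13.0 to 104), and that at 4527491 to 4527693, with 14 and 12, was 22.02-fold (9.45 to 52.1). These 4 had adjusted p-values of 6.2e-05, 8.4e-05, 0.000209 and 0.000876 in the exact binomial test of a ratio above 4. The peaks were picked by a p-value from the same tags, so these values are no separate support for them.

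Also among the 10 smallest p-values were the tallest peak of chromosome 10, at 17157063 to 17157265, with 16 ChIP and 17 input tags (17.76-fold, 8.40 to 37.4), and the chromosome 8 peak at 10851711 to 10851913, with 11 and 6 (34.6-fold, 11.7 to 114). The chromosome 9 peak at 10395097 to 10395299 had the same tags and tied with it. The other 4 ranked there with 1 or 0 input tags. Chromosome 9 had such peaks at 11350463 to 11350665 (9 ChIP tags, 1 input tag, ratio 169.87, 23.5 to 7446) and at 21569534 to 21569736 (8 and 1, ratio 151, 20.2 to 6700). The chromosome 10 peak at 17516597 to 17516799 also had 8 and 1. At 21826545 to 21826747 on chromosome 6, 7 ChIP tags stood against an input of 0. The exact 95% interval of its fold started at 27.2 and had no upper end. The other peak with 0 input tags, on chromosome 9 from 491440 to 491642, held 6 ChIP tags, and its interval started at 22.2.

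Chromosome 9 was the one with most such low-input peaks. It had 9 peaks of 97 with 3 or fewer input tags (9.28%, 4.33 to 16.9), against 1 of 111 on chromosome 6, 4 of 113 on chromosome 7, 3 of 121 on chromosome 8 and 4 of 97 on chromosome 10. The whole list had 4.55%, a value inside the interval of chromosome 9.

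Tags in the 10 kb around a peak, given per peak width, describe the ChIP level in the neighbourhood. Their median was 0.580 on chromosome 6, 0.539 on chromosome 7, 0.601 on chromosome 8, 0.601 on chromosome 9 and 0.580 on chromosome 10. It was 0.560 (0.539 to 0.601) on chromosomes 6 and 7 and 0.592 (0.559 to 0.622) on 8 to 10, with overlapping intervals. Within chromosomes the local level was higher in fuller windows. Peak counts and local level both come from the same ChIP tags, so they are not independent. In windows of 8 or more peaks the local median was 0.684 (133 peaks, 0.642 to 0.704), in windows of 3 to 7 it was 0.559 (341 peaks, 0.518 to 0.580), and in windows of 1 or 2 it was 0.518 (65 peaks, 0.456 to 0.539). The order of the fullest against the emptiest class held on each of the 5 chromosomes. Median input tags were 11 in all 3 classes, and median ChIP tags were 8, 7 and 7. Peaks within 10 kb of another had a local median of 0.704 (0.642 to 0.808), and the others 0.559 (0.518 to 0.580). The header does not say whether a peak's own tags, or those of a neighbour, count in the local level, and the part of the local level in the number of peaks was not tested.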

How the data were processed

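Both libraries, 1 ChIP and 1 input, came from differentiating primary chicken myoblasts, grouped by sample title. The submitters' processing notes list Bowtie2 (2.1.0) and HOMER (4.7). The authors, per the file headers, called peaks with HOMER findPeaks (factor style, 203 bp, false discovery rate 0.001, 4-fold and p of 0.0001 over input and over the local 10 kb) on 2207278 ChIP tags.

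Total tags are counts deposited by the authors. The score is a second tag value by the authors, and the header gives a maximum of 1 tag considered per bp. It is not a capped form of total tags. On chromosomes 6 to 10 the score was above total tags at 180 of 539 peaks, below at 24 and equal at 335. The normalized tag count and scaled input tags are a signal scaled by the authors. The focus ratio is a fraction deposited by the authors. The fold values are ratios, and the p-values unadjusted Poisson values, by the authors.

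Input tags were recovered as total tags divided by fold, in steps of 0.053 scaled tags. Of the 3309 peaks whose fold resolves a step, 99.9% came within 0.1 of a whole tag or were read as 0. Where the quotient fell well short of 1 whole tag, the peak was read as having 0 input tags, at 10 listed peaks. Input depth is not given in the header, but by that step 1 recovered input tag counts as 0.053 tags at the ChIP depth. Intervals are exact (Clopper-Pearson), Poisson or of an order statistic, at 95%. Windows ran from position 1 in steps of 1 Mb, by peak centre. The per-peak test was also run on simulated counts that had passed no filter of the caller. That run is therefore no check of the test on the filtered list. Peaks named in the text were the 10 with the smallest p-value and, per chromosome, those with most tags, highest fold, most input, the ends, the longest gap, the densest window and groups of 3 or more; other peaks and gaps in the text were picked with their values in view. The members, lists and settings were chosen with earlier results of these data known. Stricter lists, merged peaks, other lengths and other windows were tried. No genome of the file's build was used, so sequences and genes are not reported. Computation used scipy 1.17.1, numpy 2.4.6 and pandas 2.3.3 under Python 3.11.15, with plots by matplotlib 3.10.9.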

Additional observations from a re-analysis of the deposited data

How the results depend on the processing

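The density ratio of chromosomes 8 to 10 over 6 and 7 stayed between 1.32 and 1.52 in all 16 alternatives tried. Of these, 1 widened only the interval and could not move the ratio. At a score of at least 10 (91 peaks) and at least 12 (28 peaks) the interval of the ratio held 1 (0.887 to 2.14 and 0.671 to 3.59). The interval widened for the spread over windows and the count by identifier number were added after the data were seen. Stricter lists lower a density by construction. At scores of at least 8, 10 and 12, chromosomes 6 to 10 held 2.12, 0.638 and 0.196 peaks per Mb. They held 3.35 at a fold of at least 8 and 1.89 among the 1659 peaks of the whole list with the smallest p-values. Counting by identifier number takes in numbers that are not listed and gave a higher density, 5.0 per Mb. The ratio of the highest to the lowest chromosome, 1.56 as listed (1.18 to 2.07), came to 2.24 (1.01 to 5.07) at the score limit of 10. At 12 it was 4.48 (0.978 to 41.6), where chromosomes 8 and 9 (11 and 2 peaks) took the ends. Such a ratio cannot fall below 1 and tends to grow as counts fall, so its rise shows no stronger contrast. At a score of at least 10, median ChIP tags were 10 in both sets, median input tags 13 in both and the median fold of chromosomes 8 to 10 was 14.52. At the limit of 8, median input tags on chromosomes 6 and 7 were 12. The order of the median folds, higher on chromosomes 6 and 7 as listed, was not kept at a score of at least 10, where both were 14.52. Bonferroni adjustment left 7 peaks above 4-fold. Empty windows numbered 9 of 148 when shifted by 0.5 Mb, 73 of 288 at 0.5 Mb, 1 of 74 at 2 Mb and 33 at a score of at least 8; dense ones 9, 1 and 6 at the last 3 settings. The longest gap became 4.35 Mb, on chromosome 7, at a score of at least 8. Pairs numbered 22 within 5 kb, 71 within 20 kb and 17 at a score of at least 8. With the score in place of a higher tag number, the folds of the 5 named peaks concerned stayed within their intervals. The ratio of recovered tags gives back the listed fold by construction. No paired analysis was possible because neither group holds more than 1 library. The median peak held 7 ChIP tags, which limits the precision of each fold. Folds of single peaks were ranked in places, but differences between single peaks were not tested.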

Other observations

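The identifiers of the listed peaks carry numbers that are not consecutive, and on none of the 29 chromosomes did the score rise with the number. The highest numbers sum to 4447, close to the 4479 putative peaks that the authors give before filtering, of which 1162 were removed. Read that way, chromosomes 6 to 10 had at least 713 candidates, of which 174 (24.4%, exact 95% interval 21.3 to 27.7) are not listed, against 25.4% over the whole list. The share was 23.3% (18.6 to 28.6) on chromosomes 6 and 7 and 25.2% (21.1 to 29.6) on 8 to 10. By identifier number the density ratio of chromosomes 8 to 10 over 6 and 7 was 1.42 (1.22 to 1.65).

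Of the first 10 numbers on each of these 5 chromosomes, 23 of 50 are not listed, against 78 of 290 on all chromosomes. Most of the 174 unlisted numbers of chromosomes 6 to 10 come later in the order. Chromosome 9 lacked 8 of its first 10, and its first listed peak is number 8, with a score of 15. Chromosome 6 lacked 6, chromosome 8 lacked 4, chromosome 7 lacked 3 and chromosome 10 lacked 2. The heights described for these chromosomes are therefore those left after filtering, and which filter removed each candidate is not given in the header.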
